A study of Mus musculus with 3 samples.

Results

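Subcluster 8 is a small set of nuclei that the deposited annotation sets apart among the projection neurons of the mouse olfactory bulb (OB) and that carries no cell type name. Its members are the nuclei with the number 8 in the annotation of the 10 projection neuron subclusters, which gave 22 nuclei of mouse 1, 51 of mouse 2 and 53 of mouse 3 among 7504 subclustered and 31703 retained nuclei. The nuclei came from adult male C57Bl/6 mice that had received retroAAV-CAG-H2B-GFP, a virus that travels back along axons and carries a nuclear fluorescent protein under the CAG promoter, at several sites of 2 olfactory cortical areas, the piriform cortex (PCx) and the AON (anterior olfactory nucleus). Nuclei positive for GFP and for the DNA dye DRAQ5 were sorted from the OB and sequenced with the 10x 3′ v3 chemistry, with 1 library for each of 3 mice, all in 1 group without a control. The question asked was which of subclusters 0, 1, 3, 4, 5, 6 and 7 subcluster 8 resembles and which genes are its own. These 7 carry markers of T1 (0), M2 (1), ET4 (3), ET1 (4), M1 (5), ET2 (6) and M3 (7) cells, where M stands for mitral, T for tufted and ET for external tufted, and are called T1-like and so on.

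Mitral and tufted cells are the output neurons of the OB. They receive sensory axons in glomeruli, release glutamate and send axons to olfactory cortex, and they differ in the depth of their cell bodies, in their dendrites and in the cortical areas they reach. Slc17a7, a vesicular glutamate transporter, and Tbx21, a T-box transcription factor, are commonly used to recognise them, although Slc17a7 marks glutamate neurons of cortex as well.

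Subcluster 8 made up 1.97% ± 1.19 (SD, n = 3) of the subclustered nuclei. Mouse 1 had 1.41% (exact Clopper-Pearson 95% interval 0.886 to 2.13), mouse 2 had 1.17% (0.872 to 1.54) and mouse 3 had 3.34% (2.51 to 4.35). The interval of mouse 3 lay above those of the other mice, whose intervals overlapped. These intervals cover counting error only. The median nucleus of subcluster 8 held 17448 unique molecular identifiers (UMIs, each standing for a captured RNA molecule), with medians of 13819.5, 15281 and 20914 in mice 1, 2 and 3. The median over the 7 subclusters was 14456 UMIs. Of its barcodes, 1 also occurred among the nuclei of another mouse.

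Scrublet, which scores each nucleus against simulated doublets, called 36 nuclei of subcluster 8. The calls fell on 1 of 22 nuclei in mouse 1, 34 of 51 in mouse 2 and 1 of 53 in mouse 3, so that nearly all came from the mouse with the most nuclei per library. In the 7 subclusters between 0.987% and 16.1% of nuclei were called, against 800 of 943 nuclei in unnamed subcluster 2.

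The nuclei of subcluster 8 did not lie together on the deposited map of the projection neurons. Only 57.1% were within 3 map units of their median position, whereas 74.5% to 100% of nuclei were in the other subclusters. Most lay at 3 separate places, and the map was divided into 3 regions around them, here called groups A, B and C. Group C had UMAP 2 above 3, and the other nuclei belonged to group A where UMAP 1 was below 0 and otherwise to group B. These limits were set after the map had been seen, so that the groups received no test. Within 1 map unit of the median of their group lay 72 of 75, 26 of 30 and 21 of 21 nuclei, and the few others are counted with the group of their region. Group A held 75 nuclei (17, 27 and 31 in mice 1, 2 and 3), group B held 30 (4, 9 and 17) and group C held 21 (1, 15 and 5). In the coarser clustering of all nuclei, 65 of the nuclei of group A belonged to cluster 4, those of group B were divided between clusters 2 (15) and 5 (14), and those of group C were spread over clusters 13 (6), 14 (5), 4 (5), 5 (4) and 2 (1). Median depth was 15238 UMIs in group A, 19388 in group B and 24680 in group C. Scrublet calls numbered 21 of 75 in group A, 2 of 30 in group B and 13 of 21 in group C. All calls of groups A and B were in mouse 2 (21 of 27 and 2 of 9 nuclei), and those of group C were 1 of 1, 11 of 15 and 1 of 5 in mice 1, 2 and 3.

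**Figure D1:**
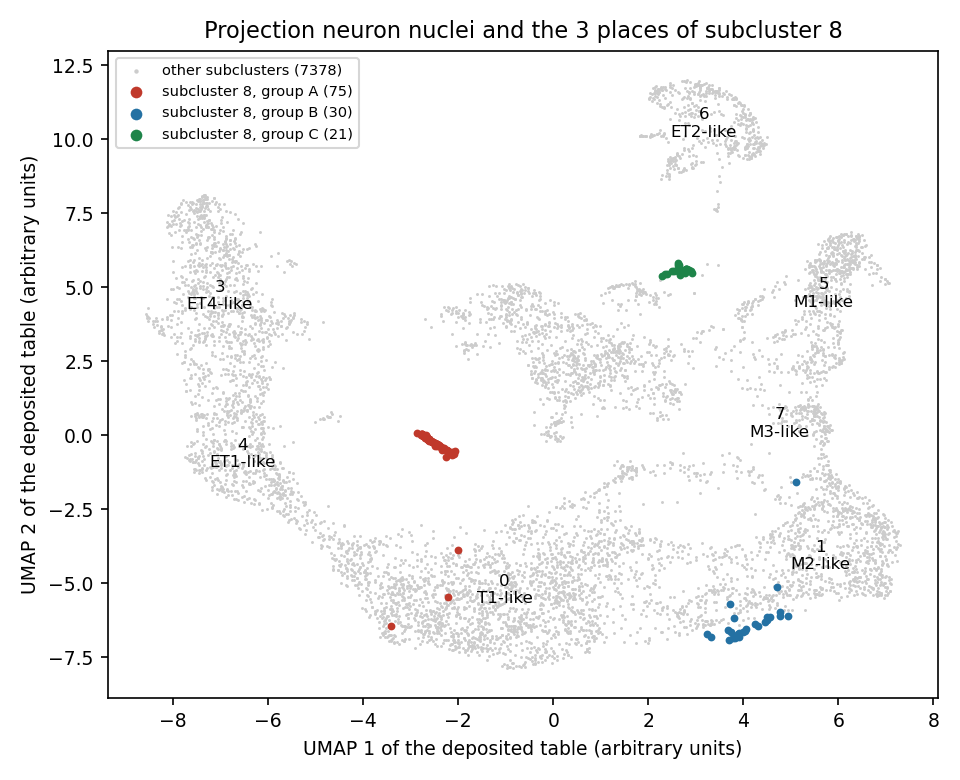
Position of each projection neuron nucleus on the deposited map (UMAP 1 against UMAP 2, arbitrary units), with the nuclei of subcluster 8 coloured by group and all others in grey. Most of the 75 nuclei of group A, the 30 of group B and the 21 of group C lie at 3 separate places, with 3 nuclei of group A and 4 of group B more than 1 unit away.

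The label was first checked against its markers. Slc17a7 reached 191, 186 and 189 CPM (counts per 1000000 UMIs) in mice 1, 2 and 3, somewhat below the 281 CPM of the 7 (log2 fold change −0.48 ± 0.16, SE). At least 1 UMI of it was held by 84.1% of nuclei (106, interval 76.6 to 90.0). The share was 85.6% in the 7 subclusters, and 14.6% in nuclei outside the projection neurons, which were shallower with a median of 7487 UMIs. Subcluster 8 was thus marked by Slc17a7 like the other projection neurons, in group A (78.7%), group B (93.3%) and group C (90.5%). Tbx21 divided it. The gene stood at 5.88, 18.6 and 21.0 CPM in mice 1, 2 and 3, and 13.5% of nuclei held a UMI (17, interval 8.06 to 20.7), against 29.9% in the 7 subclusters and 1.01% outside. In group A only 2 of 75 nuclei held a UMI of Tbx21 (2.38 CPM), in group B 7 of 30 and in group C 8 of 21 (57.3 CPM). The ET4-like and ET1-like subclusters, at 2.31 and 3.90 CPM, were as low as group A. A nucleus without a UMI of Tbx21 may still express it, since most nuclei of the 7 held none either.

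Of 9 projection neuron genes tested, 2 counted as higher and 1 as lower by the rule of size and direction given below, beside 3.96% and 3.61% of all genes. Cdhr1, a cadherin-related gene of mitral and tufted cells that was not called, had a UMI in 73.0% of nuclei against 90.5% in the 7, with 61.3% in group A, 90.0% in group B and 90.5% in group C. Eomes, the T-box factor that marks mitral and tufted cells from their birth on, was at 35.3, 46.9 and 33.0 CPM, against a mean of 142 CPM in the 7 subclusters (log2 fold change −1.53 ± 0.21, SE). Tbr1, a related factor of mitral cells and of deep cortical neurons, was at 76.5, 44.7 and 32.2 CPM against 26.5, and counted as higher (1.34 ± 0.24). Reln, which encodes the secreted protein reelin, had 1650, 1622 and 1652 CPM and was similar in all mice. Slc17a6, the second vesicular glutamate transporter, stood at 156, 111 and 173 CPM and counted as higher than in the 7 (1.11 ± 0.15), most of all in group A (237 CPM against 50.1 in group B). Some of the 7 had more of these, with 85.1 CPM of Tbr1 in ET2-like and 277 CPM of Slc17a6 in ET4-like. A UMI of Gad1, the enzyme that makes GABA, was present in 38.9% of nuclei, near the 41.0% of the 7 subclusters and below the 88.7% of the nuclei outside. The viral transcript was detected in 34.9% of nuclei (44, interval 26.6 to 43.9), which comprised 27 of 75 in group A, 12 of 30 in group B and 5 of 21 in group C, against 22.9% in the 7 subclusters and 29.8% in the shallower nuclei outside. Its level was 40.0 CPM in subcluster 8, 27.1 in the 7 and 82.9 CPM outside.

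Since the subclusters had been formed from these same counts, the differences of subcluster 8 from the others are a description and carry no test. UMIs were summed per mouse and subcluster, and log2 fold changes were taken from an edgeR fit against the mean of the log levels of the 7 subclusters. The CPM printed for the 7 is instead their arithmetic mean, which a single subcluster of high level raises strongly. A fold is thus not the ratio of the printed levels, and can lie far above it for genes high in few of the 7. A gene counted as higher (lower) where the fitted log2 fold change exceeded 1 (lay below −1) and the CPM was above (below) the mean of the 7 in each mouse. Of 13673 genes tested, 542 counted as higher (3.96%) and 493 as lower (3.61%). In all 3 mice, 132 of the higher genes exceeded each of the 7 subclusters (0.965% of the genes tested), and 43 of the lower genes were below each of them (0.314%). Any other higher gene was reached by at least 1 of the 7 in some mouse. Without mouse 1, 2 or 3, the higher genes numbered 942, 721 or 831 and the lower genes 998, 876 or 1102, each rule then asking for agreement of only 2 mice. Without group C, 514 genes counted as higher, of which 400 were among the 542, and 991 counted as lower. Without the nuclei that Scrublet called, in all subclusters, 457 genes counted as higher (351 among the 542) and 766 as lower (377 among the 493).

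The 15 leading genes, taken from those at 20 CPM or more, included a transcription factor, channel and receptor subunits and several enzymes. Satb1, a chromatin organiser and transcription factor of cortical neurons and T cells, stood at 309, 174 and 262 CPM, against a mean of 17.3 CPM in the 7 subclusters (4.07 ± 0.17). The highest of the 7, the ET4-like subcluster, had 35.7 CPM. A UMI of Satb1 was present in 97 nuclei (77.0%) and in 19.7% of the nuclei of the 7 subclusters. Satb1 lies at chr17:51736187-51833290 on the minus strand (GRCm38). Group A carried most of it, with 390 CPM against 97.4 in group B and 55.4 in group C, and within group A the level was 423, 335 and 415 CPM in mice 1, 2 and 3.

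Genes of enzymes followed. Pcsk5, a proprotein convertase that cleaves secreted precursors (chr19:17432319-17837632, minus strand), was at 347, 244 and 431 CPM against 15.8 (5.42 ± 0.19). No mouse overlapped with any of the 7 subclusters, the highest of which was ET2-like with 48.7 CPM. Of its 877 UMIs in subcluster 8, 91.3% came from group A. Hs3st4, a sulfotransferase that modifies heparan sulfate chains (chr7:123982869-124398989, plus strand), was the most abundant leading gene with 2730, 1395 and 2684 CPM against 336 (3.52 ± 0.21). The M3-like subcluster was the closest with 1057 CPM. It was found in 74 of 75 nuclei of group A (3339 CPM) and in 30 of 30 of group B (1667 CPM), but in 6 of 21 of group C (320 CPM), where 1 nucleus held 141 of the 173 UMIs. Agbl1, a carboxypeptidase that trims glutamates from tubulin (chr7:76229887-77124698, plus strand), reached 432, 181 and 148 CPM, while the 7 subclusters lay between 7.39 and 15.7 CPM (4.50 ± 0.20). Group A held 97.0% of its UMIs, though not evenly, since 33 of 75 nuclei held a UMI, 19 held 5 or more and the highest held 66. Agbl1 was at 11.5 CPM in group B and 12.9 CPM in group C, the level of the other subclusters. The annotation places other genes on the same strand within the spans of Agbl1, Satb1, Hs3st4 and, of the leading genes below, Kcnmb2, Pdzrn3, Eps8 and Cdh19, and reads of these cannot be told apart where they overlap.

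Among genes of excitability and synapses, Kcnmb2, a beta subunit of the calcium- and voltage-gated BK channel, was at 847, 480 and 723 CPM, against 64.9 in the 7 (5.13 ± 0.18). The ET4-like subcluster also carried it, with 376 CPM, and cluster 7 outside the projection neurons had 1169 CPM, so that the gene was not particular to subcluster 8 in the OB. The same held for 9 of the 15 leading genes, Kcnmb2 included, which had a higher level in a cluster outside the projection neurons than in subcluster 8. Neto1, an auxiliary subunit of kainate receptors, stood at 188, 92.8 and 134 CPM against 10.6 (3.89 ± 0.33), and Htr7, a serotonin receptor, at 58.8, 29.5 and 11.3 CPM against 2.64 (4.15 ± 0.42). Neto1 also stood at 110 CPM in unnamed subcluster 2 and at 630 CPM in cluster 12 outside the projection neurons. Htr7 was low and uneven among the mice, with a UMI in 20 nuclei, and was higher in unnamed subcluster 9 (46.6 CPM) and in cluster 6 (171 CPM). Pdzrn3, an E3 ubiquitin ligase of synapses, was at 288, 179 and 212 CPM against 19.6 (3.84 ± 0.18). In contrast to most leading genes, Pdzrn3 was as high in group B (298 CPM) as in group A (222 CPM), and Eps8, a regulator of actin filaments, was too, with 87.3 CPM in group B and 77.9 in group A.

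The highest fold belonged to Gm40518, a long noncoding RNA at chr9:48132504-48158965 on the minus strand that overlaps no other annotated gene. It stood at 79.4, 36.0 and 54.0 CPM, and the mean of the 7 was 0.93 CPM. In 3 of the 7 subclusters it had no UMI, so that its fitted fold depends on the prior count and is not given. It was detected in 48 nuclei of subcluster 8, in 0.331% of the nuclei of the 7, and in no cluster outside the projection neurons above 0.462 CPM. The 48 nuclei comprised 38 of 75 in group A, 9 of 30 in group B and 1 of 21 in group C, and nuclei of group A from all mice held it (94.9, 61.1 and 89.2 CPM). The remaining leading genes were the kinase gene Stk32a (4.35 ± 0.37), the cell adhesion gene Bves (4.31 ± 0.35), the integrin subunit gene Itgb5 (3.94 ± 0.41), the small GTPase gene Gem (3.33 ± 0.36) and Cdh19 (4.44 ± 0.39), a cadherin of glia. For Cdh19, group C held 92.0% of its UMIs, group B none, and the astrocyte-like cluster 9 had 914 CPM. Stk32a was likewise higher in cluster 9 (188 CPM) than in subcluster 8, without a UMI in group B, but stood at 52.5 CPM in group A beside 68.4 in group C. Bves had no UMI in group B either and was highest in group A (54.8 CPM).

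**Figure D2:**
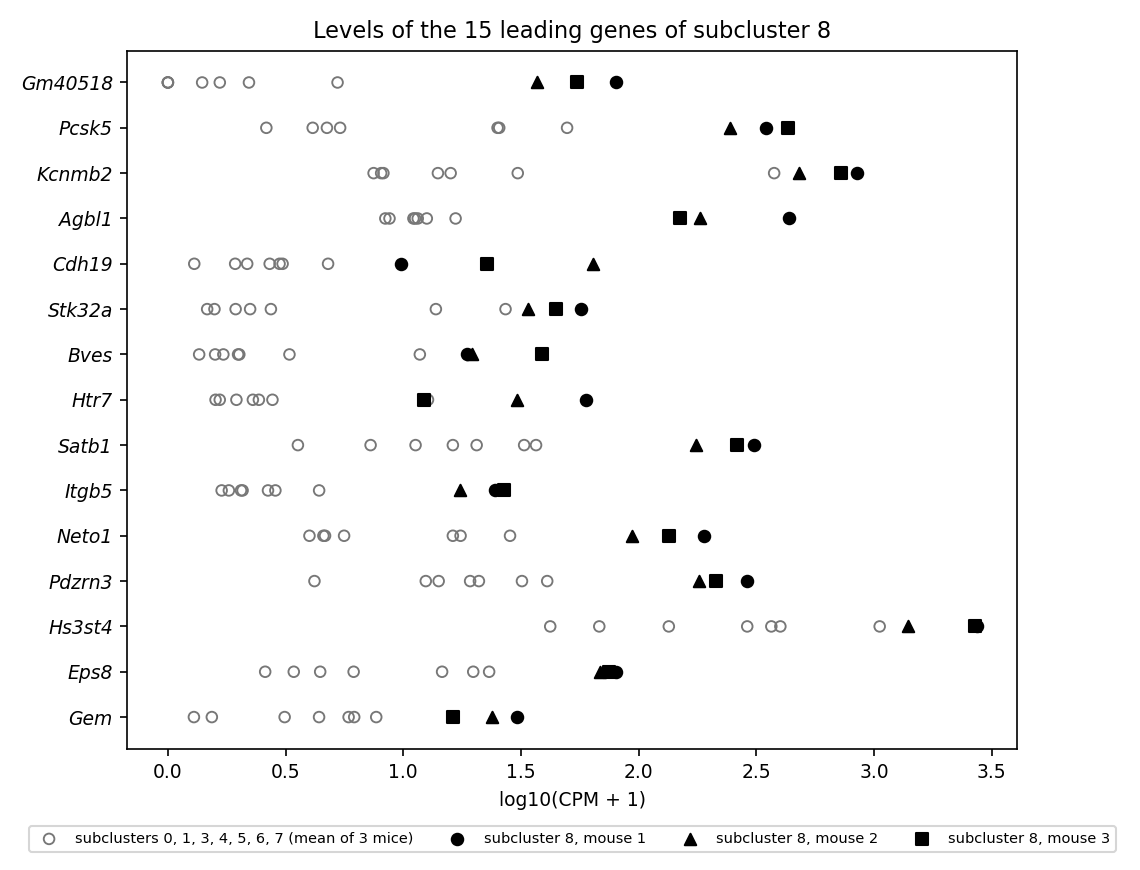
Level of the 15 leading genes as log10(CPM + 1), with filled symbols for subcluster 8 in each of 3 mice and open circles for the means of the 7 other subclusters. All mice lie to the right of the open circles, other than mouse 3 for Htr7 (11.3 CPM beside a mean of 11.7 in M3-like), and Kcnmb2 and Hs3st4 are approached by a subcluster of high level (376 CPM in ET4-like and 1057 CPM in M3-like).

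Counted per nucleus, the leading genes occurred together in group A. The median number of these 15 genes with a UMI was 8 in group A, 5 in group B, 4 in group C and 1 in the 7 subclusters. At least 6 of them were found in 58 of 75 nuclei of group A (77.3%), 12 of 30 of group B, 5 of 21 of group C and 24 of 6346 nuclei of the 7 subclusters (0.378%). Median depth, which bears on such counts, was 15238 UMIs in group A and 14456 in the 7 subclusters. Because these genes were chosen as high in subcluster 8, the counts only say which of its nuclei carried them.

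**Figure D3:**
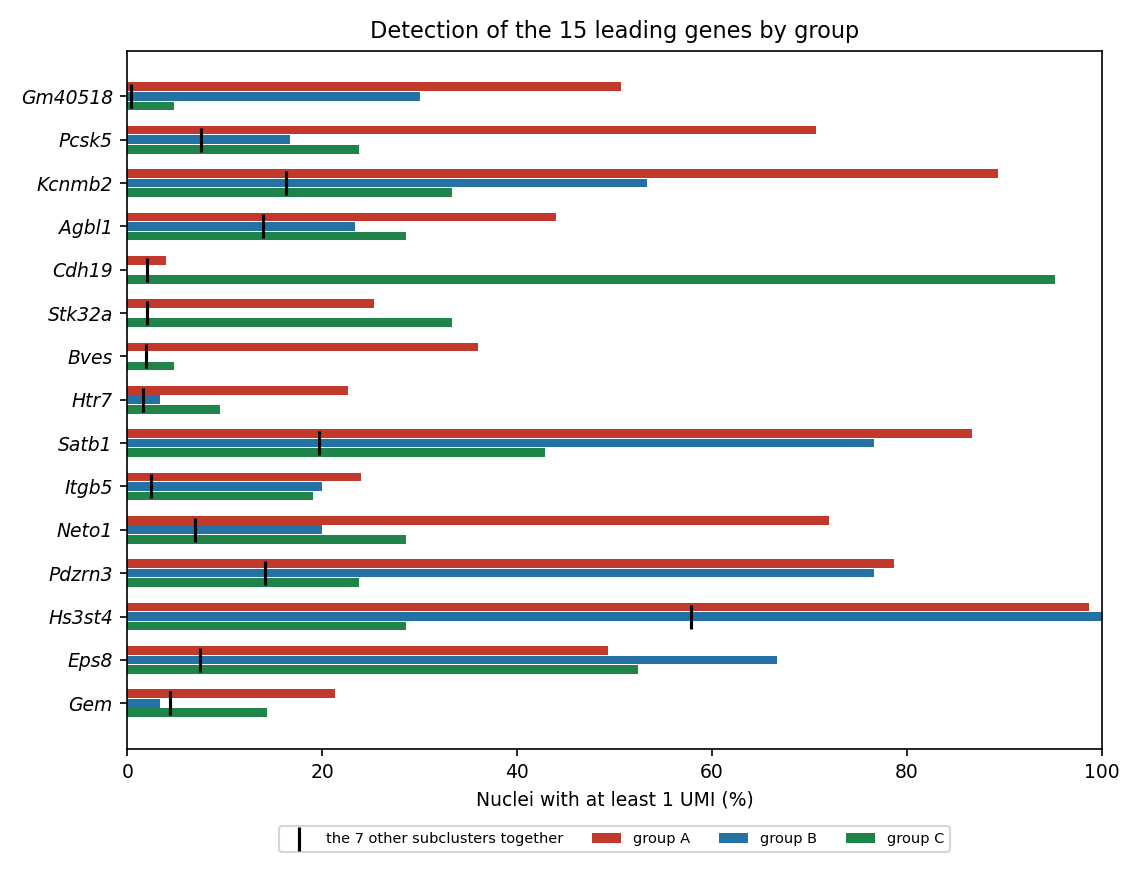
Percent of nuclei with at least 1 UMI of each leading gene in groups A, B and C (bars) and in the 7 other subclusters together (black marks). Bars of group A are longest for most genes, Pdzrn3, Satb1, Eps8 and Hs3st4 are also frequent in group B, and Cdh19 is frequent in group C alone.

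The 10 leading genes lower in subcluster 8 were taken from those with at least 20 CPM in the 7. Trhde, an enzyme that degrades thyrotropin-releasing hormone, was at 85.3, 134 and 92.7 CPM against 506 (−1.66 ± 0.17), the T1-like and ET1-like subclusters being highest with 1300 and 983 CPM. Patj, a scaffold protein of cell polarity, was at 55.9, 48.0 and 38.7 CPM against 183 (−1.70 ± 0.16), and Bicc1, an RNA-binding protein, at 55.9, 26.2 and 32.2 CPM against 149 (−1.73 ± 0.18). Patj was low in all groups (39.0 to 61.0 CPM), whereas Bicc1 stood at 8.74 CPM in group A and at 86.9 CPM in group C. The peptide gene Nmb (−1.94 ± 0.38) and the neuropeptide Y receptor gene Npy1r (−1.98 ± 0.46) were also lower, as were the transcription factor gene Emx2 (−1.86 ± 0.36), the acid-sensing channel gene Asic1 (−2.07 ± 0.46) and the sulfotransferase gene Ust (−1.99 ± 0.27). Ust had 4.77 CPM in group A and no UMI in group B, but 55.4 CPM in group C, close to the 62.7 CPM of the 7 subclusters. The synaptic organiser gene Cbln2 (28.5 CPM in the 7) and the relaxin receptor gene Rxfp1 (42.4 CPM) were at most 3.27 and 7.25 CPM in any mouse.

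The likeness of subcluster 8 to each of the 7 was described by Pearson's r of log2(CPM + 10) across 13673 genes within each mouse. Genes are not independent replicates, and libraries with more UMIs are measured with less noise, so that r is given without a p-value. The M2-like subcluster came first with r of 0.900, 0.932 and 0.927 in mice 1, 2 and 3, followed by T1-like with 0.902, 0.924 and 0.925 and ET1-like with 0.898, 0.930 and 0.924. These 3 were not separated, as M2-like was above T1-like in 2 of 3 mice and the difference ranged from −0.0019 to 0.0075 with a mean of 0.0023, or 0.00021 without the Scrublet calls. M1-like varied between mice, with 0.839, 0.930 and 0.910. In mouse 1 it was the smallest library (14 nuclei, 161593 UMIs), and with libraries thinned to that size its r was 0.818 beside 0.834 for M2-like. ET4-like was lowest in mice 1 and 2 (0.837 and 0.890), and ET2-like in mouse 3 (0.886). For comparison, subcluster 8 of one mouse correlated with that of another with a mean r of 0.939, and each of the 7 with itself with 0.923 to 0.993. Unnamed subcluster 2, most of whose nuclei were called doublets, had r of 0.905, 0.953 and 0.939 with subcluster 8 and was above all 7. Without the Scrublet calls it had 0.883, 0.918 and 0.920 and was below the highest of the 7 in each mouse (T1-like with 0.894, then M2-like with 0.923 and 0.926). Without mouse 2, and without group C, T1-like came first.

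A count of differing genes gave another order. With the same rule of size and direction, fewest genes differed from the M1-like subcluster (1485, 10.9%), followed by ET1-like (1779, 13.0%), M2-like (1837, 13.4%) and T1-like (1871, 13.7%). Most differed from ET4-like (2895, 21.2%), with ET2-like (2210, 16.2%) and M3-like (2269, 16.6%) between. M1-like had the lowest mean r among mice of the 7 (0.923), which came from the small library of mouse 1 (0.895 and 0.888 with mice 2 and 3, which correlated with each other at 0.985). The rule asks for the same direction in every mouse, and the part of that library in the count was not tested. From the unnamed subclusters 2 and 9, in a fit of 13720 genes, 1459 (10.6%) and 1200 (8.75%) differed. No single subcluster was thus the nearest by both measures.

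Among the 7, the groups differed in the subcluster that came first. Group A correlated best with the ET1-like subcluster in 3 of 3 mice (0.867, 0.915 and 0.890), with T1-like next in each mouse (0.863, 0.905 and 0.883). Group B correlated best with T1-like in 3 of 3 mice (0.837, 0.903 and 0.930), with M2-like next (0.832, 0.899 and 0.928). The differences were small, and the number of nuclei in mouse 1 was 17 in group A and 4 in group B. Group C correlated best with M1-like in mice 2 and 3 (0.915 and 0.860) and, from a single nucleus, with M2-like in mouse 1 (0.732). These orders hold among the 7 only. Unnamed subcluster 2 was above them for group A in each mouse (0.871, 0.919 and 0.896) and for group C in mouse 3 (0.872), and unnamed subcluster 9 had 0.916 for group C in mouse 2.

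**Figure D4:**
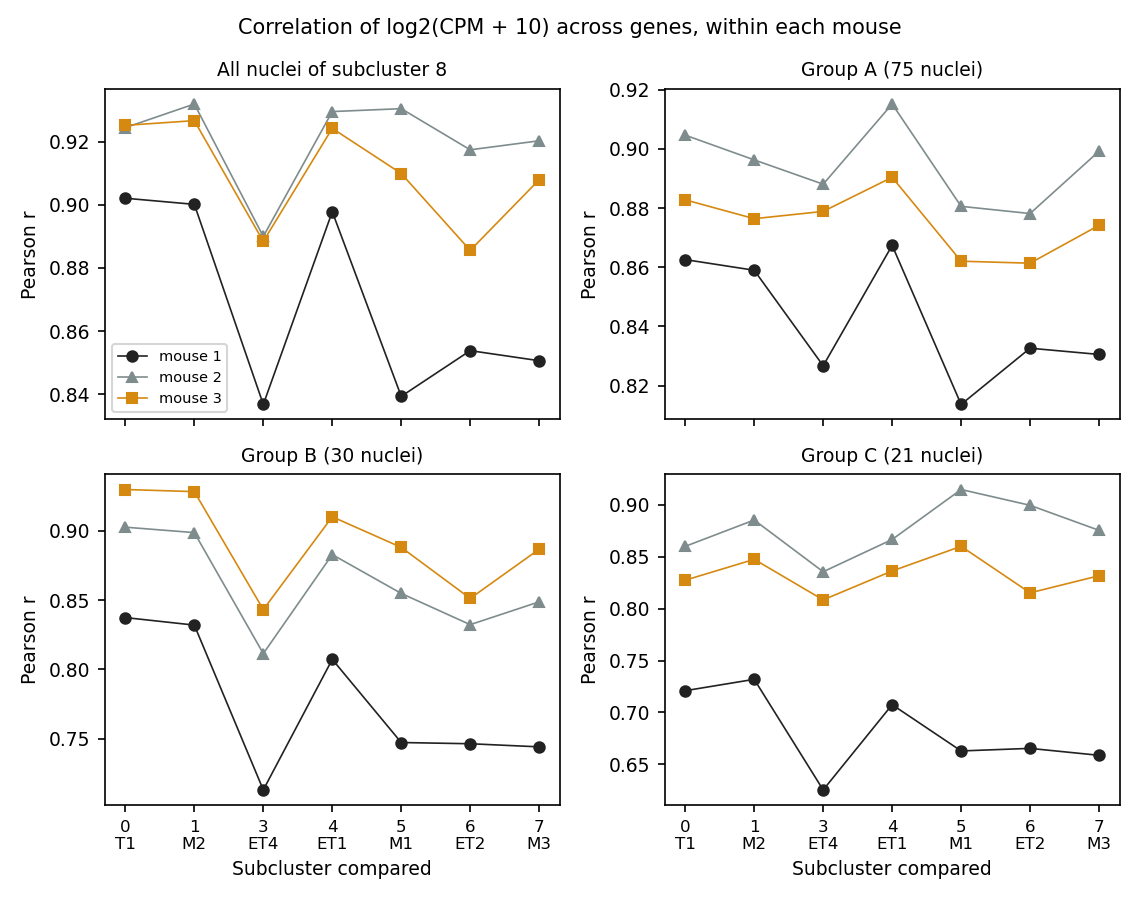
Pearson's r of log2(CPM + 10) across genes within each mouse between subcluster 8 and each of the 7 other subclusters, for the whole subcluster and for groups A, B and C, each panel with its own range of r that does not start at 0. For the whole, M2-like, T1-like and ET1-like lie at nearly the same height, whereas group A peaks at ET1-like and group B at T1-like in each mouse.

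Single nuclei were then given to the subcluster whose profile, made from the other 2 mice, they matched best. ET1-like took 3 of 22, 12 of 51 and 24 of 53 nuclei in mice 1, 2 and 3, T1-like took 8, 12 and 12, and M2-like took 6, 7 and 10. Summed over the mice, 39 went to ET1-like, 32 to T1-like, 23 to M2-like, 12 to M3-like, 9 to ET4-like, 6 to M1-like and 5 to ET2-like. The lead of ET1-like rested on mouse 3, without which ET1-like took 15 of 73 nuclei (20.5%) and T1-like 20 (27.4%). Nuclei of the 7 subclusters were given back to their own in 90.6% of cases, from 64.7% for M3-like to 99.2% for ET2-like. In group A, 37 of 75 nuclei went to ET1-like, 13 to T1-like and 12 to M3-like. By mouse, ET1-like took 3 of 17, 12 of 27 and 22 of 31 of these nuclei, and in mouse 1 T1-like was ahead with 6. In group B, 18 of 30 went to T1-like and 12 to M2-like, with none elsewhere. In group C, 6 of 21 went to M1-like, 5 to ET2-like, 4 to M2-like and 3 to ET4-like. When subclusters 2, 8 and 9 were added as choices, 69 of 75 nuclei of group A matched the subcluster 8 profile of the other mice, against 8 of 30 of group B and 1 of 21 of group C. Group A held 50.4% of the UMIs of subcluster 8, from which that profile was made.

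A weighted sum of other profiles described the groups as follows, with weights from non-negative least squares on pooled counts. For group A the largest weights were 30.8% for M3-like, 19.1% for ET1-like and 15.2% for T1-like (r of 0.938 between fit and observation). Fitted by mouse, the weight of M3-like was 18.3%, 29.5% and 24.8% in mice 1, 2 and 3 while ET1-like had 19.5% in mouse 1 and 18.7% in mouse 2, so that the order of the 2 differed between these mice. For group B they were 42.6% for T1-like and 39.3% for M2-like (0.954). For group C they were 32.2% for M1-like, 22.1% for the astrocyte-like cluster 9 and 19.3% for M2-like (0.968). These weights describe the pooled nuclei, and group C of mouse 1 was a single nucleus.

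The marker lists of the 7 types, which the study had chosen on these samples and which are therefore no independent evidence, were counted next. Of the genes tested in each list, 3 of 13 were higher (1 without group C) and none lower for M1, none higher and 3 of 11 lower for M2, none and 5 of 10 for M3, none and 1 of 8 for T1, 1 and 3 of 7 for ET1, none of 9 for ET2, and 1 of 7 higher for ET4. Over all genes the shares were 3.96% higher and 3.61% lower. Summed over a list, subcluster 8 had 31.0% of the CPM of the ET1-like subcluster for the ET1 list, beside 30.1% in the ET4-like subcluster, and between 2.76% (ET2) and 19.4% (M2) for the other lists. For 4 of the lists another of the 7 had more, with 58.0% of T1 in ET1-like, 40.1% of M2 in M3-like, 25.4% of M3 in M1-like and 21.7% of ET4 in ET2-like. In these sums over all nuclei no list thus approached its home subcluster, although single nuclei exceeded it for some lists. The ET1 share was 23.2% in group A, 44.3% in group B and 28.9% in group C. Group A had 24.2% of the ET4 list, and group B had 12.6% of the T1 list and 17.8% of the M2 list. Group C had 44.6% of the M1 list, carried by few of its nuclei, and 45.8% of the M2 list. Its median nucleus had 2.78 UMIs of the M1 list per 10000 UMIs, below the 3.21 of group A. For the M2 list the median nucleus of group C had 7.33, above the 2.80 of group A and the 3.29 of group B. The highest nuclei of group C had 115 and 59.5 for the M1 and M2 lists, above the home subclusters with 6491 and 2885 CPM. The highest nucleus of group A had 26.7 for the T1 list, above the 1818 CPM of the T1-like subcluster. The single genes behind these counts were few. Rorb, an orphan nuclear receptor of cortical layer 4 on the ET1 list, stood at 318, 296 and 249 CPM against 85.7 (2.48 ± 0.38), and Itga8, an integrin subunit on the ET4 list, at 124, 91.7 and 118 CPM against 32.8 (4.30 ± 0.22). The ET4-like subcluster had more Itga8 than subcluster 8, with 195 CPM. Within subcluster 8 it was carried by group A (204 CPM), with 24.0 CPM in group C and 4.30 CPM in group B.

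The 8 genes shared most with the M2-like subcluster, which came first by correlation, were taken from those at 20 CPM or more in both. Among these they had the largest mean of both over the other 6 subclusters. Besides Hs3st4 they included Alk, a receptor tyrosine kinase, at 565, 624 and 824 CPM against 624 CPM in M2-like and 1223 in T1-like. Alk was highest in group B with 1612 CPM, and stood at 454 CPM in group A and 166 in group C. They also included the sodium-proton exchangers Slc9a4 (38.2, 27.3 and 24.2 CPM against 43.9) and Slc9a2 (47.1, 56.7 and 90.2 CPM against 82.8), the actin nucleator Cobl (70.6, 140 and 105 CPM against 136) and the long noncoding RNA Gm32647 (218, 195 and 151 CPM against 178). The remaining 2 were 4930555F03Rik (38.2, 20.7 and 50.8 CPM against 61.1) and the semaphorin gene Sema6d (141, 228 and 197 CPM against 477), which did not count as higher in subcluster 8. Apart from Hs3st4, each was at or below 30.8 CPM in the ET4-like and ET1-like subclusters, other than Alk with 81.0 CPM in ET1-like. Only 4930555F03Rik and Sema6d were highest in M2-like among the 7, as M3-like had 59.6 CPM of Slc9a4, 134 of Slc9a2 and 316 of Gm32647, and M1-like had 232 CPM of Cobl. Within subcluster 8, Slc9a4 (68.7 CPM), Slc9a2 (153 CPM) and 4930555F03Rik (81.6 CPM) were highest in group B, with 10.3, 46.1 and 12.7 CPM in group A. Gm32647 was highest in group A (226 CPM), and Cobl and Sema6d were highest in group C (159 and 288 CPM). Without group C, 4930555F03Rik no longer counted as higher, at a log2 fold change of 1.64. Against M2-like alone, Itga8 (0.89 CPM there, 6.74 ± 0.36) and the kainate receptor subunit gene Grik4 (76.5, 61.1 and 50.8 CPM against 0.83, 5.98 ± 0.35) were far higher in subcluster 8, though ET2-like had 317 CPM of Grik4. Ros1, a receptor tyrosine kinase of the M2 list, was far lower (2.94, 9.82 and 8.86 CPM against 102, −3.75 ± 0.41), and so was Samsn1, an adaptor protein of the same list (32.4, 13.1 and 7.25 CPM against 113, −3.23 ± 0.35). Vgll2, a cofactor of transcription on that list, had 1 UMI in subcluster 8 and 28.1 CPM in M2-like.

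Of 39 transcription factor genes tested, 10 were higher and 1 lower, beside 3.96% and 3.61% of all genes, and 8 of the 39 were higher without group C. This list and those below were chosen with earlier results of these data known, so that their counts carry no test. The list also holds Satb1, a leading gene, and Rorb, which is counted in the ET1 list as well. The median log2 fold change was 0.62 for the list and −0.0026 for all genes. Summed over the list, subcluster 8 had 8090 CPM, within the 5731 (M3-like) to 9523 CPM (M1-like) of the 7 subclusters. A positive median does not by itself mean a higher level, as the ET2 list had 1.73 with none of its 9 genes higher. Besides Satb1 and Rorb the higher genes included the LIM-homeobox genes Lhx9 (41.2, 18.6 and 27.4 CPM against 9.01, 4.05 ± 0.37) and Lhx2 (35.3, 36.0 and 82.2 CPM against 25.9, 1.68 ± 0.22), the ETS factor gene Etv1 (44.1, 120 and 124 CPM against 35.7, 1.91 ± 0.21) and the zinc finger genes Tshz2 and Zeb2. Lhx9 was carried by groups A (35.0 CPM) and B (28.6 CPM) and was near 0 in group C (1.85 CPM), and M3-like had 31.3 CPM of it. The nuclear factor genes Nfia and Nfib, which are abundant in astrocytes as well as in neurons, had their highest levels in group C (179 and 135 CPM), against 22.3 and 16.7 CPM in group A.

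A list of genes of cortical glutamate neurons had 4 of 13 higher and none lower, beside 3.96% and 3.61% of all genes, with a median of 0.78, and 6 higher without group C. Summed over the list, subcluster 8 was not highest, with 1374 CPM beside 2579 in ET1-like, 1946 in T1-like and 1868 in ET4-like, and group A (1176 CPM) was below group B (1833 CPM). Neurod2, a bHLH factor of excitatory neurons, was at 23.5, 24.0 and 26.6 CPM against 10.5 (2.50 ± 0.27), with 39.3 CPM in ET4-like. Neurod6, a close relative, was at 20.6, 13.1 and 28.2 CPM against 6.93 (2.59 ± 0.32). Bhlhe22, another bHLH factor, was at 8.83 CPM or more in each mouse against 0.31, and Rorb was the fourth. Neurod2, Neurod6 and Bhlhe22 stood highest in group A (36.6, 36.6 and 16.7 CPM) and were at or below 1.85 CPM in group C. The range among mice was narrow for Neurod2, and the levels of these 3 bHLH genes were low compared with Satb1 or Rorb.

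Of 15 sodium and calcium channel genes none passed the rule in either direction, beside 3.96% higher and 3.61% lower of all genes. Some potassium channel genes were higher. Kcnt2, a sodium-activated potassium channel (70.6, 32.7 and 104 CPM against 8.94, 3.79 ± 0.26), Kcna1 (2.25 ± 0.31) and Kcnh1 (2.29 ± 0.25) were highest in group A. Kcnj3, a subunit of G protein-gated channels, passed the rule narrowly (1.00 ± 0.16) and was highest in group B with 1150 CPM. ET2-like had more Kcnj3 (1515 CPM), and ET4-like had 80.4 CPM of Kcna1 against 59.7 in subcluster 8.

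The counts of the next lists stand beside the same shares of 3.96% and 3.61% of all genes, and a single member called in a list of 14 or 20 is near that share. For receptors, 1 of 20 glutamate receptor genes was higher, Grin3a (70.6, 30.6 and 34.6 CPM against 6.33, 2.77 ± 0.30), and none was lower. The metabotropic receptor genes Grm7 and Grm8 did not pass for the whole subcluster but differed between its groups, with 7206 CPM of Grm7 in group B against 2026 in group A, and 2462 CPM of Grm8 in group B against 325 in group A. Of 14 GABA receptor genes 1 was higher, Gabrb1 (1.57 ± 0.14), and group C had the most of it (3068 CPM). Of 39 adhesion and guidance genes 4 were higher and none lower, led by Nrp2, a semaphorin receptor (174, 170 and 159 CPM against 123, 2.51 ± 0.21), and Cdh12, a cadherin (427, 324 and 441 CPM against 150, 1.72 ± 0.13). The M1-like subcluster had more Nrp2 (608 CPM) and more Gabrb1 (4743 CPM) than subcluster 8. Of 16 neuropeptide genes 2 were higher, Vgf (32.4, 17.5 and 35.5 CPM against 14.1) and Trh, and 4 were lower, Nmb, Vip, Nts and Calca, of which Vip, Nts and Calca had a mean of at most 7.99 CPM in the 7. Of 9 immediate early genes, which neuronal activity and tissue handling induce, Nr4a1 and Npas4 were higher, both at or below 40.3 CPM. Without group C, 2 glutamate receptor, no GABA receptor, 4 adhesion, 1 neuropeptide and 3 immediate early genes were higher.

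None of 3 genes of external tufted cells (Gabbr2, Shisa6 and Pip5k1b), 2 of tufted cells (Zbtb20 and Astn2) and 2 of mitral cells (Fam19a2 and Tnfaip8), sets that the study had also chosen on these samples, passed the rule in either direction. Of the external tufted cell genes, Shisa6, an auxiliary protein of glutamate receptors, had 897 CPM in group A and 656 in group C but 10.0 CPM in group B, and Pip5k1b, a lipid kinase, had 587, 115 and 24.3 CPM in groups A, C and B. Group B stood apart from the others in these genes, and from group A also in Kctd16, an auxiliary subunit of GABA-B receptors, with 1057 CPM against 577 in group A, 75.8 in group C and at most 332 in any of the 7 subclusters.

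Group C carried genes of astrocytes. Slc1a3, a glutamate transporter of astrocytes, was found in 21 of 21 nuclei of group C (397 CPM), against 6 of 75 in group A, 2 of 30 in group B, 6.18% of the nuclei of the 7 subclusters and 99.4% of the astrocyte-like cluster 9. The astrocyte list, of which 7 of 8 genes were tested, had 5 higher genes in subcluster 8 (median 2.61) and 1 without group C. Over all genes 3.96% were higher, and the median was −0.0026. Summed over the list, the level was 335, 878 and 510 CPM in mice 1, 2 and 3, and 382, 271 and 1630 CPM in groups A, B and C. The 7 subclusters ranged from 59.0 to 331 CPM, and the astrocyte-like cluster had 6332 CPM. The gene that remained without group C was Slc1a2, a glutamate transporter that was at 300 CPM in group A and 218 CPM in group B, with a mean of 85.9 CPM in the 7. Other astrocyte genes of group C were Gpc5 (1371 CPM against 39.7 in group A) and Ptprz1 (353 against 21.5), named after their values were seen.

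Some nuclei of group C held genes of mitral or of external tufted cells beside these. The 6 nuclei that belonged to cluster 13 had between 41.0 and 115 UMIs of the M1 list per 10000 UMIs, and the other 15 had at most 17.7. The 5 nuclei of cluster 14 had between 4.18 and 10.9 UMIs of the ET2 list per 10000 UMIs, beside 1150 CPM in the ET2-like subcluster. The highest nucleus for the ET4 list, of cluster 4, had 18.3 per 10000 UMIs, beside 1719 CPM in the ET4-like subcluster. Ebf1 (774 CPM), Cntn6 (1035 CPM) and Gabra2 (708 CPM), all on the M1 list, were at 6.36, 187 and 24.6 CPM in group A, the levels of group C being those of its pooled nuclei. The summed list of inhibitory neuron genes was 321, 919 and 363 CPM in mice 1, 2 and 3 and 1406 CPM in group C, with none of its 14 genes passing the rule. The nuclei of group C differed widely in it, from 1.96 to 39.6 UMIs per 10000 UMIs with a median of 5.75. Of markers of other cells, none of 3 microglia genes and none of 3 ensheathing glia genes passed, 1 of 6 oligodendrocyte genes was lower, and 1 of 2 oligodendrocyte precursor, 1 of 3 vascular and 1 of 5 periglomerular genes (none without group C) were higher, beside 3.96% higher and 3.61% lower of all genes and on lists too short for a share to be read. In group C 13 of 21 nuclei were called doublets, 11 of them in mouse 2, and median depth was 24680 UMIs; the part of either in these levels was not tested.

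**Figure D5:**
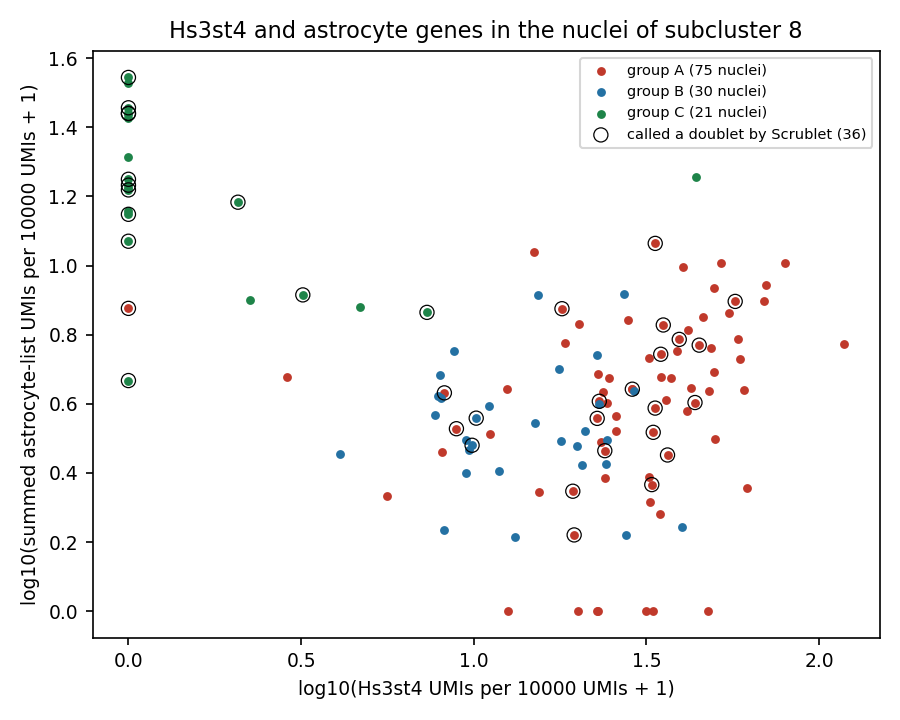
Each nucleus of subcluster 8 by its Hs3st4 UMIs (x axis) and its summed astrocyte-list UMIs (y axis), both as log10 of UMIs per 10000 UMIs plus 1, coloured by group, with rings around the 36 nuclei that Scrublet called. Of the 21 nuclei of group C, 16 lie above every nucleus of group A in astrocyte genes and 5 within its range, and 15 have no Hs3st4.

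Apart from Cdh19, which fell under the filter on low counts without group C, the leading genes counted as higher also without group C. Of the 74 genes that counted as higher, exceeded each of the 7 in every mouse and reached 20 CPM, 66 also counted as higher without group C. Without the called doublets all 15 had log2 fold changes of 2.96 (Gem) or more. Satb1 then stood at 4.25, Pcsk5 at 5.40, Agbl1 at 4.36, Kcnmb2 at 5.19 and Hs3st4 at 3.63. Group A alone gave 4.65 for Satb1, 6.13 for Pcsk5 and 5.79 for Kcnmb2, whereas group B alone gave 2.76, 2.98 and 2.76. In group B, Agbl1 did not differ from the 7 by the rule of size (0.22).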

How the data were processed

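The authors deposited raw UMI counts from Cell Ranger, version 3.0.2 per the file headers, on mm10 (GRCm38), and formed clusters and subclusters of the merged mice with Seurat. A deposited table gives subcluster, percent of mitochondrial UMIs and map coordinates (scores in arbitrary units), which the authors computed per nucleus. Its 4 other numeric columns were not used.

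The 3 libraries held 58526996, 213891496 and 62929479 UMIs in retained nuclei. UMIs were summed per mouse and subcluster (24 libraries), filtered with filterByExpr, scaled by TMM and fitted with edgeR 4.0.16 in R 4.3.3, without covariates and without using its p-values; CPM ignores TMM factors. Scrublet (scanpy 1.11.5) ran per mouse with 0.8% expected doublets per 1000 nuclei and removed nothing. It called 3.18%, 17.0% and 3.35% of nuclei. Named genes were the 15 highest and 10 lowest folds under the stated rules, those shared with or differing from the subcluster with the highest mean r (M2-like), the label markers and list members. Other genes were named after their values were seen. Some list members are not reported here. Members and lists were chosen with earlier results of these data known. Positions came from GENCODE M21 (31011 of 31055 identifiers matched).

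Libraries of a mouse come from 1 animal, which pairs them. Deviations correlated with a mean r of 0.0801 within mice (21 pairs) and −0.0393 between mice (42 pairs). Alternatives were DESeq2 1.42.0, other filters, references, depths and nuclei. The mice are the replicates.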

Additional observations from a re-analysis of the deposited data

How the results depend on the processing

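Counts of genes depended on the setting more than the leading genes did. With the mouse as a replicate block, 544 genes counted as higher and 478 as lower (542 and 493 without), and without replicates 1 to 3 in turn the range was 721 to 942 and 876 to 1102. Libraries thinned to the smallest of their mouse gave 311 and 193. Lower genes numbered 3937 with no filter, 766 without Scrublet calls and 1097 against the summed nuclei of the 7. Settings added after seeing the data gave 991 lower genes without group C, 1342 for group A alone, 329 higher and 2450 lower for group B, and 312 and 1639 for group C. The correlation with the M2-like subcluster (0.920) was 0.888 by Spearman, 0.951 over all genes, 0.848 over the 2000 most variable, 0.880 with a pseudocount of 1 CPM, 0.889 when thinned, and 0.877, 0.886 and 0.822 for groups A, B and C. By Spearman and with a pseudocount of 1 CPM, M2-like had the highest mean of the 7 but came first in 0 of 3 mice. Over the 2000 most variable genes it came first in 1 of 3 mice. With subclusters 2, 8 and 9 as choices, nuclei given to T1-like, M2-like, ET4-like, ET1-like and M3-like fell to 13.5%, 10.3%, 2.38%, 0.794% and 0.0%. Over all retained nuclei the share was 0.578%. Of 455 values of 33 called named genes, 6 reversed, namely Stk32a (−6.10), Bves (−5.44) and Itga8 (−0.31) in group B, Rxfp1 (0.10) and Vgll2 (0.92) in group C, and Vgll2 without replicate 3 (0.23; −5.00 to 0.23 over the replicates left out). Stk32a and Bves had no UMI in group B, so that these values depend on the prior count; for the others the cause was not tested. Group C rests on 21 nuclei and 1 nucleus in mouse 1, which limits every value of it.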
